A study of Mus musculus with 16 samples.

Results

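Cells of KPC1199, a mouse pancreatic cancer line, were sorted out of tumours grown in the pancreas and divided by their level of Ly6d into a Ly6d-high and a Ly6d-low fraction. Each fraction was sequenced as 2 libraries, which are 4 of the 16 samples of the series. The comparison asked how tumour cells sorted as high and as low in Ly6d differ across all genes. KPC is the usual name for mouse pancreatic cancer models that rely on a Cre recombinase active in the pancreas. The labels name the line, the organ and the Ly6d level. Whether the sorted cells carried the Ly6d construct used elsewhere in the series, the strain, sex and age of the hosts, the antibody gate, and whether libraries 1 and 2 came from separate tumours are not stated there. As a result the p-values measure only the spread between these libraries, which may be technical. KPC1199 is labelled as a line, whether both fractions came from the same culture is not stated, and the hosts' own cells were in the tumours that were sorted.

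The table lists 54532 genes, and all 14625 at 1 TPM (a unit of expression normalised for gene length and depth) or above in no fewer than 2 libraries were tested. All levels below are scaled TPM, that is TPM divided by a factor per library so that the typical gene does not differ between libraries (TMM factors, limma-trend on log2(scaled TPM + 1)). A difference is Ly6d-high minus Ly6d-low on that log2 scale, which understates the change of genes with low levels. A gene was called higher or lower where the limma p, adjusted over all tested genes by the Benjamini-Hochberg method, was under 0.05. Recovered read totals ran from 15063975 to 20509539 per library. Libraries of the same fraction correlated at 0.981 (Ly6d-high) and 0.990 (Ly6d-low) across genes, and libraries of different fractions at 0.951 to 0.961.

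Ly6d is a small protein held on the outer cell membrane by a glycolipid anchor, and it belongs to a family of Ly6 proteins that are widely used as surface markers. It is known from stratified epithelia and, in mice, from early cells of the B lymphocyte lineage. Pancreatic duct cells and the tumours related to them secrete mucus, bicarbonate and antimicrobial proteins, and inflamed epithelia switch on secreted defence proteins such as lipocalin 2.

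Ly6d (ENSMUSG00000034634, GRCm38 chr15:74762056-74763620) was at 681 and 426 scaled TPM in Ly6d-high and 1.74 and 0.3803 in Ly6d-low. The low fraction rested on 7 and 2 recovered reads. The sort set this difference, so it is a check of the labels and not a finding. In the separately processed count table, sorted cells labelled WT held Ly6d at 1260.0 and 1066 CPM (counts scaled to a common library total), where Ly6d-high libraries held 203 and 136 and Ly6d-low libraries 0.465 and 0.104. The same WT libraries held Lcn2 at 104 and 96.1 CPM and Mmp7 at 26.2 and 25.1, against 1648 and 1357 (Lcn2) and 478 and 366 (Mmp7) in Ly6d-high and 68.6 and 75.8 (Lcn2) and 24.2 and 20.4 (Mmp7) in Ly6d-low. The WT cells thus stood above both fractions for Ly6d and near the Ly6d-low fraction for Lcn2 and Mmp7. The tables were processed separately, so these are levels set side by side and were not tested.

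The fractions differed in both directions. Of all tested genes, 712 (4.87%) were higher and 249 (1.70%) lower in Ly6d-high cells, and 3919 had an unadjusted p under 0.05. The rises were the larger changes. The median log2 difference was 1.55 among higher genes and -0.84 among lower genes, and 222 of the higher but 14 of the lower genes differed more than 4-fold on this scale. The higher genes were mostly of low level in Ly6d-low cells, with a median of 1.62 there and 9.34 scaled TPM in Ly6d-high cells, whereas the lower genes had a median of 47.4 in Ly6d-low and 27.3 in Ly6d-high cells. The lower genes were also shorter, with a median gene model of 1588 bases against 2528.5 for higher genes and 3530.0 for all tested genes, and 53 of them were processed pseudogenes, which share reads with the genes they were copied from. Leaving out a library leaves 1 to stand for its fraction, assumed to vary like the other. The counts were then 1744 higher and 2349 lower without Ly6d-high replicate 1, 625 and 595 without Ly6d-high replicate 2, 347 and 27 without Ly6d-low replicate 1, and 388 and 32 without Ly6d-low replicate 2. On TPM as deposited, whose median difference over all genes was 0.246, 1264 genes were higher and 171 lower (88.1% of calls higher, against 74.1% with scaling), edgeR on the recovered reads called 1224 and 591, and without the filter on low levels 342 and 54 were called, which ended the call of 86 of the 181 genes chosen for naming. Counts of called members by list and direction moved as well. Of 65 such counts, 60 changed by over 1.5 times without 1 of the libraries, on TPM as deposited or by edgeR or DESeq2 on recovered reads, and 26 were 0 without either Ly6d-low replicate, left out in turn. The medians of 12 lists that were under 0 with scaling were above 0 on TPM as deposited: basal and squamous, cell cycle, cholesterol synthesis, EGF receptor family, heat shock, immediate early, MHC class I, mucins, Myc targets and ribosome biogenesis, Notch, Nrf2 antioxidant, and unfolded protein and stress genes.

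**Figure D1:**
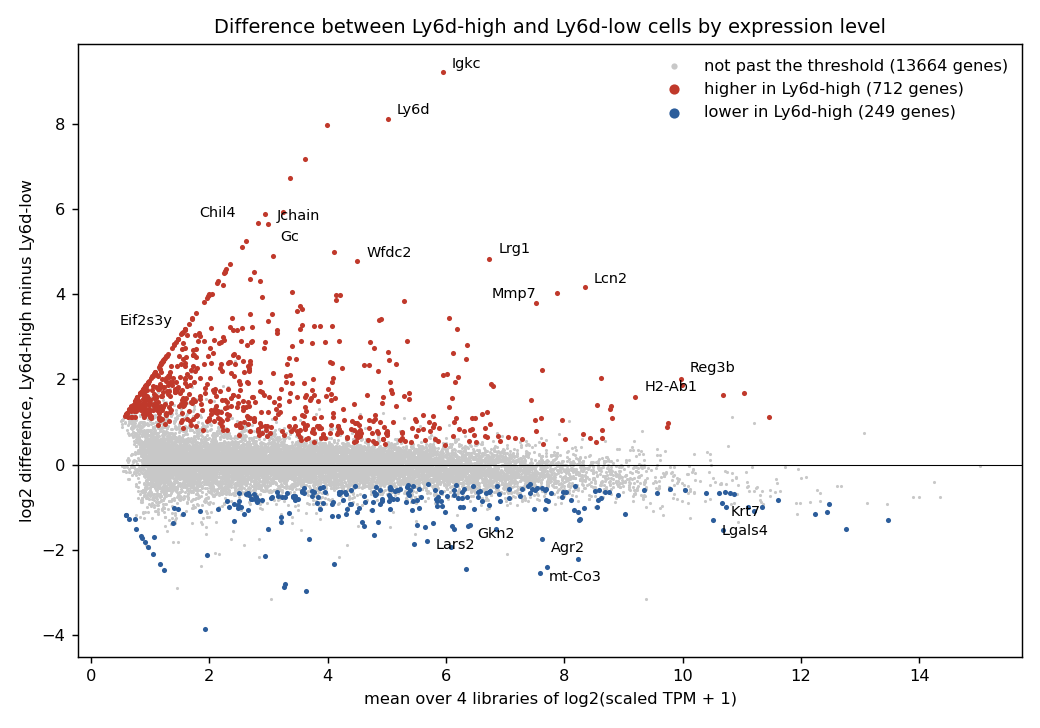
Each point is a tested gene, with its mean log2(scaled TPM + 1) over the 4 libraries on the horizontal axis and its log2 difference, Ly6d-high minus Ly6d-low, on the vertical axis. The 712 higher genes reach differences above 8 and lie mostly at low levels, while the 249 lower genes spread over the whole range of levels with smaller differences.

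Among the rises were genes of mucosal defence and the acute phase response, with 12 of 19 tested members of that list higher and 0 lower (median log2 difference 1.23, against 0.01 over all tested genes). The lists here and below were chosen with earlier results of these data known. Their counts therefore describe the members and do not test the lists. A gene under 1 TPM in both Ly6d-low libraries passed the filter only through Ly6d-high. Its call as higher is no test of direction, in any list below. Each stands beside shares of 4.87% higher and 1.70% lower over all tested genes. Lcn2 (ENSMUSG00000026822, GRCm38 chr2:32384633-32388252) encodes lipocalin 2, which binds bacterial iron carriers. Its level was 1570.2 and 1208 scaled TPM in Ly6d-high and 73.1 and 79.02 in Ly6d-low, a mean 18.3-fold higher, and the log2 difference was 4.16 ± 0.15 (SE, limma adjusted p = 0.00133). Both high libraries lay far above both low libraries. Lrg1 (ENSMUSG00000037095, chr17:56119678-56122001), a leucine-rich secreted glycoprotein of the acute phase, was at 543 and 584 scaled TPM in Ly6d-high and 18.8 and 19.3 in Ly6d-low. That was 29.6-fold higher in the mean, with a log2 difference of 4.81 ± 0.09 (SE, limma adjusted p = 0.000471), and the spread within either fraction was small beside it. Lrg1 was not a member of the list. Wfdc2 (ENSMUSG00000017723, chr2:164562413-164568510), a secreted protein with whey acidic protein domains, was at 133 and 103 scaled TPM in Ly6d-high and 4.23 and 2.61 in Ly6d-low (4.77 ± 0.23 (SE, limma adjusted p = 0.00233)), and was thus nearly silent in Ly6d-low cells. The iron oxidase ceruloplasmin (Cp) was at 212 and 207 against 55.6 and 55.3 scaled TPM, the inter-alpha-trypsin inhibitor heavy chain Itih4 at 11.9 and 13.7 against 2.01 and 1.92, and Duoxa2, the maturation factor of a hydrogen peroxide-producing oxidase, at 29.8 and 34.8 against 7.45 and 7.82. Lactotransferrin (Ltf), the other iron-binding protein of secretions in the list, was at 152 and 163 against 66.9 and 66.4 (1.23). The remaining higher members, named after their values were seen, were the lectins Reg3a and Reg3b, whose near-identical copies may share reads, the protease inhibitors Serpina3n and Slpi, haptoglobin (Hp) and the antibody transporter Pigr. 

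Secreted plasma proteins, which the liver makes in the healthy animal, were higher too. In the list of plasma carrier proteins, 11 of 17 tested members were higher and 1 lower, with a median log2 difference of 1.83. Gc (ENSMUSG00000035540, chr5:89417522-89457898), the vitamin D-binding protein, was at 100.4 and 90.95 scaled TPM in Ly6d-high and 2.11 and 1.99 in Ly6d-low, a 46.6-fold rise (4.98 ± 0.10 (SE, limma adjusted p = 0.000522)). Ambp, the precursor of alpha-1-microglobulin and bikunin, was at 743 and 627 scaled TPM in Ly6d-high and 47.5 and 50 in Ly6d-low (3.78 ± 0.12 (SE, limma adjusted p = 0.000967)) and was the most abundant of these genes in Ly6d-high cells. Both had levels that did not overlap between fractions. The fibrinogen chains Fga and Fgg were at 16.9 and 14.3 against 0.0616 and 0 and 17 and 22.05 against 0 and 0.203 scaled TPM, and the albumin gene Alb at 7.08 and 7.22 against 0.396 and 0.362, so all 3 were almost without reads in Ly6d-low cells. Fga, Fgg and Alb passed the filter on low levels only through Ly6d-high, so these genes could hardly have been called lower. The share and median of this list were thus set in part by the filter. Apoe, which carries lipids, was at 232 and 188 against 59.3 and 56.2. Ttr, the carrier of thyroxine and retinol, was at 83.7 and 58.5 against 9.73 and 7.66. The lower member was Apob, the structural protein of large lipoproteins, named after its values were seen, at 9.14 and 9.46 against 19.1 and 17.6 (-0.91, adjusted p = 0.0157). Members of the plasma carrier proteins list called higher numbered 7 without either Ly6d-high replicate. The plasma carrier proteins list had lower members numbering 4 without Ly6d-high replicate 1, 3 without Ly6d-high replicate 2 and 0 without either Ly6d-low replicate. The count was 0 on TPM as deposited, 3 by edgeR on recovered reads and 3 by DESeq2 on recovered reads. Calls no longer held without either Ly6d-low replicate for Apob (adjusted p from 0.085 to 0.123) and on TPM as deposited for Apob (adjusted p = 0.0558).

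In the complement list 7 of 18 tested members were higher and 0 lower (median 0.79). C3 (ENSMUSG00000024164, chr17:57203970-57228136), the protein on which all complement pathways meet, was at 219 and 220.4 scaled TPM in Ly6d-high and 22.9 and 23.5 in Ly6d-low, or 9.48-fold higher (3.19 ± 0.08 (SE, limma adjusted p = 0.000726)). C4b, the classical pathway partner of C3, was at 24.6 and 29.4 against 3.29 and 2.78, and Serping1, which encodes the inhibitor of the first complement proteases, at 129 and 127 against 27.2 and 30.9 (log2 differences 2.79 and 2.10). Proteases and regulators thus rose along with the central components. The classical pathway protease C1s1 was at 29.8 and 31.7 against 15.9 and 14.6, Cfi, which cuts active C3 and C4 fragments, at 94.9 and 102 against 55.7 and 54.4, and Cd59a, a Ly6 family protein that blocks pore assembly on the cell's own membrane, at 4.84 and 6.95 against 1.94 and 1.797. Counted again, higher members of the complement list were 3 without either Ly6d-low replicate. Adjusted p passed 0.05 without either Ly6d-low replicate for C1s1, Cfi and Cd59a (adjusted p from 0.0705 to 0.139).

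**Figure D2:**
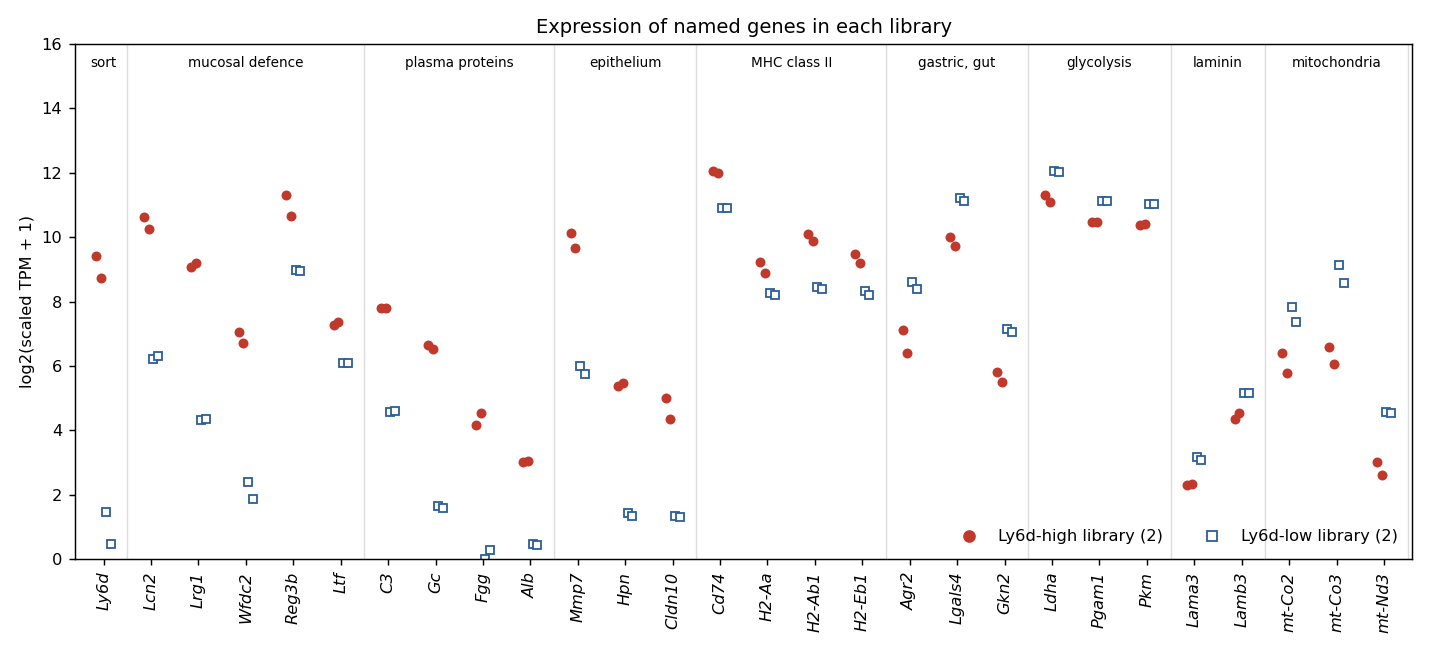
Each column is a named gene and each symbol a library, at log2(scaled TPM + 1); filled circles are the 2 Ly6d-high and open squares the 2 Ly6d-low libraries. The defence, plasma protein, epithelial and MHC class II genes shown sit higher in both Ly6d-high libraries, and the gastric, glycolytic, laminin and mitochondrial genes shown lower. The genes were chosen for display, and Lrg1 is not in the mucosal defence list. Of the classical and gastric list 9 members were lower and 4 higher, and the list with the laminins had a median of 0.13.

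Among proteases and membrane genes of epithelia, 11 of 32 tested members of the epithelial identity list were higher and 0 lower (median 0.37). The membrane-anchored serine protease prostasin (Prss8) was at 51.5 and 47.2 against 5.704 and 5.73. The recycling GTPase Rab25 was at 44.4 and 37.8 against 4.32 and 5.07, and Ap1m2, an adaptor subunit for sorting to the basolateral membrane, at 25.3 and 25.3 against 2.36 and 1.58 (log2 differences of Prss8, Rab25 and Ap1m2 2.90, 2.89 and 3.16). Pdzk1ip1, a small membrane protein of epithelia, was at 138 and 86.7 against 15.2 and 12.7. Other higher members, named after their values were seen, included the transcription factors Grhl2 and Ovol1, the matriptase gene St14 with its inhibitor Spint1, and the desmosomal cadherins Dsc2 and Dsg2. Hpn, the related protease hepsin, was at 40.5 and 43.3 against 1.67 and 1.55 (4.04 ± 0.10 (SE, limma adjusted p = 0.000726)). The pan-epithelial genes Epcam (1909.9 and 1700.5 against 2725 and 2474) and Cdh1 (178 and 195 against 184 and 186) did not pass the test (adjusted p = 0.09 and 0.954), nor did the keratin genes Krt8, Krt18 and Krt19 (log2 differences -0.77, -0.76 and -0.93; adjusted p = 0.0675, 0.0843 and 0.0529). Epcam, Krt8, Krt18 and Krt19 were nonetheless lower in both Ly6d-high libraries than in either Ly6d-low library. All 4 libraries carried these epithelial markers and Cdh1, each at 178 scaled TPM or more. In the epithelial identity and adhesion list the count of higher members was 6 without either Ly6d-low replicate.

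Tight junction genes changed in both directions, with 5 of 24 tested members higher and 2 lower (median 0.19). The claudins, which seal the space between epithelial cells, were split. Cldn4 was at 79.4 and 80.01 scaled TPM in Ly6d-high and 15.2 and 14.1 in Ly6d-low (2.37 ± 0.09 (SE, limma adjusted p = 0.00133)), Cldn8 at 16.8 and 14.5 against 1.34 and 1.38 and Cldn10, which forms channels for ions in secretory epithelia, at 30.8 and 19.5 against 1.502 and 1.47. Cldn3 was already abundant in Ly6d-low cells, at 590.4 and 646, and stood at 1197 and 1219 in Ly6d-high cells. The lower members were Cldn18, the claudin of stomach epithelium, at 326 and 299 against 459.5 and 485 (-0.60 ± 0.10 (SE, limma adjusted p = 0.0413)), and Cldn12, named after its values were seen. Members of the tight junction list called higher numbered 9 without Ly6d-high replicate 1 and 3 without either Ly6d-low replicate. The threshold was missed without either Ly6d-low replicate for Cldn3, Cldn18 and Cldn12 (adjusted p from 0.139 to 0.366) and on TPM as deposited for Cldn18 and Cldn12 (adjusted p from 0.108 to 0.352).

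Mmp7 (ENSMUSG00000018623, chr9:7692090-7699585), the secreted matrix protease matrilysin that also activates gut defensins, was at 1118 and 801 scaled TPM in Ly6d-high and 63.2 and 52.3 in Ly6d-low. That was 16.6-fold higher in the mean (4.02 ± 0.20 (SE, limma adjusted p = 0.00251)), with no overlap. Mmp23 was the other higher member of the metalloproteinase list, at 6.301 and 5.05 against 2.297 and 2.24, so 2 of 22 tested members were higher and 0 lower (median 0.03). The call was lost without either Ly6d-low replicate for Mmp23 (adjusted p from 0.128 to 0.129).

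Genes of pancreatic duct cells were in part higher, with 7 of 20 tested members called higher and 0 lower (median 0.27). The members' log2 differences ranged from -0.93 to 3.78. Summed over the list, levels were 52725 and 40721 scaled TPM in Ly6d-high and 55211 and 51479 in Ly6d-low, so the sum was not higher in Ly6d-high. Besides Ambp, the doublecortin-domain gene Dcdc2a was at 19.7 and 18.7 against 1.39 and 0.973, and the duct and liver transcription factor Onecut1 at 8.71 and 9.95 against 0.2704 and 0.516 (log2 difference 2.89). Both were close to silent in Ly6d-low cells. Bicc1, an RNA-binding protein of duct and kidney tubule cilia, was at 31.5 and 36.8 against 18.5 and 18.2. Prox1, a transcription factor of pancreas progenitors and lymphatic vessels, was at 4.46 and 5.06 against 0.4197 and 0.371 (2.04 ± 0.16 (SE, limma adjusted p = 0.00671)). It was also in the endothelial list, of which it was the 1 of 15 tested members called. The pancreatic duct list had higher members numbering 3 without either Ly6d-low replicate. Calls no longer held without either Ly6d-low replicate for Bicc1 (adjusted p from 0.134 to 0.138).

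Among transport genes of secretory and absorptive epithelia, 4 of 28 tested members were higher and 1 lower (median 0.19). The sodium-glucose carrier Slc5a1 was at 11.1 and 13.5 against 0.406 and 0.9997. The chloride channel regulator Clca3a2 was at 4.63 and 5.66 against 0.5596 and 0.783 and the phosphate carrier Slc34a2 at 2.41 and 2.41 against 0.03697 and 0.0282. All 3 were near 0 in Ly6d-low cells. These 3 passed the filter only through Ly6d-high, so the count of higher members is no test of direction. The water channels went separate ways. Aqp5, the aquaporin of gland secretory cells, was at 48.9 and 47.98 against 29.7 and 27.9 (0.73), and Aqp1, the aquaporin of ducts and capillaries, at 16.2 and 14.03 against 30.3 and 33.4 (-1.03). Gabrp, a subunit of the GABA-A receptor chloride channel found in epithelia, was among the largest rises of all genes, at 30.1 and 32.5 against 0.329 and 0.503 (4.51 ± 0.13 (SE, limma adjusted p = 0.000802)). Of the mucins, which form the gel and the cell surface coat, 3 of 17 were higher and 0 lower (median -0.21): Muc20 was at 15.1 and 17.5 against 3.87 and 4.18, and Muc3 and Muc3a, which may share reads, at 102 and 106 against 45.7 and 51.3 and 15.8 and 21.5 against 5.11 and 5.92. Adjusted p passed 0.05 without either Ly6d-low replicate for Aqp5 and Aqp1 (adjusted p from 0.0694 to 0.185) and without Ly6d-low replicate 1 for Muc3 (adjusted p = 0.0774). Counted again, higher members of the ion transport and mucosal secretion list were 8 without Ly6d-high replicate 1. The count was 8 on TPM as deposited, 8 by edgeR on recovered reads and 7 by DESeq2 on recovered reads.

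Other large rises came from outside these groups. Chil4, a chitinase-like protein of inflamed mucosa that closely resembles its neighbour Chil3, was at 54.2 and 45.6 scaled TPM in Ly6d-high and had 0 reads in Ly6d-low libraries, which makes it at least 584-fold higher against a floor of 3 reads over the Ly6d-low group. Acod1, which makes the antimicrobial metabolite itaconate, was at 44.3 and 45.6 scaled TPM in Ly6d-high and 0.565 and 0.539 in Ly6d-low (4.89 ± 0.10 (SE, limma adjusted p = 0.000522)). Gas6, a ligand of the receptor tyrosine kinases Tyro3, Axl and Mertk, was at 170.5 and 171 scaled TPM in Ly6d-high and 26.5 and 27.8 in Ly6d-low (2.61 ± 0.08 (SE, limma adjusted p = 0.001)) and was the 1 of 25 tested members of the mesenchymal transition list that was called. The share called in that list, 4.0%, was under the 4.87% higher over all tested genes. The keratin Krt17, of basal and injured epithelia, was at 41.9 and 34.7 against 2.27 and 2.19 (3.60). Among 17 tested basal and squamous genes 2 rose and 2 fell, the latter being Serpinb5 at 44.5 and 39.9 against 78.04 and 71.3 and Krt16 at 1.32 and 1.62 against 3.91 and 4.61. The small heat shock proteins Hspb8 and Cryab were at 18.8 and 20.7 against 2.09 and 1.596 and 160.5 and 112 against 30.8 and 29.2, with 3 of 24 members of the heat shock list higher and 1 lower, the mitochondrial chaperone Hspd1 at 345 and 310.5 against 523 and 502. In the heat shock list the count of lower members was 11 without Ly6d-high replicate 1, 2 without Ly6d-high replicate 2 and 0 without either Ly6d-low replicate. The count was 0 on TPM as deposited, 4 by edgeR on recovered reads and 5 by DESeq2 on recovered reads. The threshold was missed without either Ly6d-low replicate for Serpinb5, Krt16 and Hspd1 (adjusted p from 0.104 to 0.348), on TPM as deposited for Krt16 and Hspd1 (adjusted p from 0.0506 to 0.0652) and by DESeq2 on recovered reads for Krt16 (adjusted p = 0.102). Members of the basal and squamous list called lower numbered 6 without Ly6d-high replicate 1, 5 without Ly6d-high replicate 2 and 0 without either Ly6d-low replicate. The count was 1 on TPM as deposited.

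Relatives of Ly6d were measured in the Ly6 and uPAR family list, of which 4 of 22 tested members were higher and 1 lower, Ly6d itself included (median 0.29). Ly6g6e, a neuronal and epithelial member, was at 5.84 and 3.196 against 0.146 and 0.222, and Ly6i at 6.85 and 3.96 against 1.28 and 0.857. Lypd8, which keeps flagellated bacteria off the gut epithelium, was the lower member, at 408 and 296 scaled TPM in Ly6d-high and 815 and 741 in Ly6d-low (-1.16 ± 0.18 (SE, limma adjusted p = 0.0376)), and was the most abundant of the called members in Ly6d-low cells. The Ly6 and uPAR family list had higher members numbering 2 without either Ly6d-low replicate. Counted again, lower members of the Ly6 and uPAR family list were 7 without Ly6d-high replicate 1, 3 without Ly6d-high replicate 2 and 0 without either Ly6d-low replicate. The count was 2 by edgeR on recovered reads and 4 by DESeq2 on recovered reads. The call was lost without either Ly6d-low replicate for Ly6i, Lypd8 and Cd59a (adjusted p from 0.074 to 0.162).

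Genes of MHC class II presentation, by which cells show peptides from outside the cell to helper T cells, were higher in 6 of 10 tested members and lower in 0 (median 0.98). H2-Ab1, the beta chain of the I-A molecule, was at 1104 and 932 scaled TPM in Ly6d-high and 348 and 332 in Ly6d-low (1.58 ± 0.12 (SE, limma adjusted p = 0.00697)). The invariant chain Cd74, which guards the peptide groove, was at 4215 and 4029 scaled TPM in Ly6d-high and 1899.7 and 1923 in Ly6d-low (1.11 ± 0.11 (SE, limma adjusted p = 0.013)). Both were abundant in Ly6d-low cells as well, and higher in both Ly6d-high libraries. H2-Eb1, the beta chain of I-E, was at 717 and 587 against 317 and 294, H2-DMb2, a chain of the peptide exchange factor, at 29.1 and 28.6 against 7.803 and 7.61, and the invariant chain protease Ctss at 31.2 and 28.8 against 16.2 and 13.3. H2-Aa, the partner of H2-Ab1, chosen for naming with its values known, was at 593 and 473 against 309 and 292 (0.82, adjusted p = 0.0458). Of 21 class I genes, the Qa-2 genes H2-Q6 and H2-Q7, near-identical copies that may share reads, were at 183 and 196 against 33.8 and 33.1 and 145 and 132 against 35.9 and 35.2, and H2-Q10 at 1.77 and 2.19 against 0.298 and 0.488. The other 18 class I members were not called, and the list's median was -0.14. In the MHC class II list the count of higher members was 2 without either Ly6d-low replicate. Calls no longer held without either Ly6d-low replicate for H2-Aa, Cd74, H2-Eb1, Ctss and H2-Q10 (adjusted p from 0.0573 to 0.262).

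Sequences before the start sites are shown for Mmp7, as a leading rise, for the stomach gene Gkn2, as a lower gene described below, and for H2-Aa and H2-Eb1. The last pair were chosen among the class II genes because they hold the Y box, a motif known from class II promoters. The sequences are the 250 bases before the RefSeq start site, 5′ to 3′ on the gene's own strand, with matches to any of the searched motifs in capitals.
Mmp7 (GRCm38.p6, chr9:7691840-7692089, + strand): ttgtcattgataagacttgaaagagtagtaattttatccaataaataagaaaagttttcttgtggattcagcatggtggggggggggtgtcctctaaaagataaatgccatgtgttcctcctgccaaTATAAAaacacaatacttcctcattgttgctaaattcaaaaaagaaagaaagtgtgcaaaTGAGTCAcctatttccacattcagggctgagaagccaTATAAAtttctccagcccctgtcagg
H2-Aa (GRCm38.p6, chr17:34287824-34288073, - strand): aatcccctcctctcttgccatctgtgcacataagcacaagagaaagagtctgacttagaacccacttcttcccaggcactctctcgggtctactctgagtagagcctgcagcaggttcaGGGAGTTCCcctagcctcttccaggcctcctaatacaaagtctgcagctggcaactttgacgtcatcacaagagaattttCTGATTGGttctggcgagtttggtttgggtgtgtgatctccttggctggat
H2-Eb1 (GRCm38.p6, chr17:34305617-34305866, + strand): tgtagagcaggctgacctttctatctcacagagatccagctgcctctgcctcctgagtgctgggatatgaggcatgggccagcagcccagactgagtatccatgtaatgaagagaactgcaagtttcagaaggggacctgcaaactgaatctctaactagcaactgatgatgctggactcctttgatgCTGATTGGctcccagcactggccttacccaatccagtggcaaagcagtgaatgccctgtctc
Gkn2 (GRCm38.p6, chr6:87373115-87373364, + strand): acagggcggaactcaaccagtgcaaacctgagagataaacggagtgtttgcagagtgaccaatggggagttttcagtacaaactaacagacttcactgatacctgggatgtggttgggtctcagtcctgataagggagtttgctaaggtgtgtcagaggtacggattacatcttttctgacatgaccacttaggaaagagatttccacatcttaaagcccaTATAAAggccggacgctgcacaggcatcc
The capitals mark TATAAA boxes in Mmp7 (positions -26 and -123 from the start) and Gkn2 (position -29), an AP-1 motif, TGANTCA, in Mmp7 (position -63), the Y box CTGATTGG in H2-Aa and H2-Eb1 (positions -51 and -62) and a kappaB motif, GGGNNTTCC, in H2-Aa (position -131). The window of H2-DMb2, the class II gene with the largest rise, held no exact CTGATTGG and a gamma-activated site, TTCNNNGAA, at position -218. It did hold GTGATTGG, a near match that a search for exact letters does not count. The start site used for H2-DMb2 lay 1942 bases from the listed gene start. Positions are those of the first base of the match. Both strands were searched in windows of 300 bases, 250 before to 50 after the start, for 10015 tested genes with a RefSeq promoter on GRCm38.p6. TATAAA was found in 7.88% of all these windows, in 69 of 443 windows of higher genes (15.6%) and in 15 of 120 of lower genes (12.5%). TGANTCA was found in 5.30% of all, 8.58% of higher and 9.17% of lower genes. The kappaB motif was in 7.55%, 9.71% and 6.67%, the gamma-activated site in 7.04%, 9.71% and 5.0%, and the interferon response motif GAAANNGAA in 7.22%, 7.67% and 6.67%. The Y box was in 6.13%, 3.84% and 7.5%, the grainyhead motif AACCNGTT in 1.85%, 2.93% and 0.83%, and the TEAD motif GGAATG in 12.2%, 16.03% and 18.3%. Matches of different motifs may overlap, and a match describes the letters and not a bound site. The shares were not tested.

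Targets and feedback genes of NF-kB, the transcription factor that cytokines and microbial products release, were higher in 6 of 32 tested members and lower in 0 (median 0.23). The adhesion molecule Icam1, which leukocyte integrins bind, was at 61.7 and 73.4 scaled TPM in Ly6d-high and 21.5 and 21.4 in Ly6d-low (1.60 ± 0.12 (SE, limma adjusted p = 0.00598)). The inhibitor Nfkbie, the adhesion molecule Vcam1 and the ubiquitin ligase Birc3 were at 28.5 and 29.9 against 14 and 13.9, 72.2 and 75.01 against 40.5 and 38.8 and 15.4 and 15.2 against 8.14 and 8.25, and the cytokine Il1b at 5.62 and 4.4 against 1.26 and 1.19. In the interferon-stimulated list 5 of 48 were higher and 0 lower (median 0.13). They were Irf8, a transcription factor of myeloid and B cells, at 4.37 and 4.23 against 0.4203 and 0.361, and the guanylate-binding proteins Gbp4 and Gbp6, Oasl2 and Ifi44, whose log2 differences lay between 0.65 and 0.74. Of the chemokines, 2 of 26 were higher: Ccl6 at 12.2 and 10.3 against 2.89 and 1.58 and Cxcl12 at 3.29 and 3.79 against 1.18 and 1.298. In the list of cytokine receptors and the STAT3 axis 5 of 31 were higher and 2 lower. The cytokine feedback inhibitors Cish and Socs2 were at 7.97 and 9.84 against 2.54 and 3.24 and 24.9 and 22.3 against 12.6 and 12.9, the leukaemia inhibitory factor receptor Lifr at 5.202 and 5.54 against 2.32 and 2.44 and the interleukin 17C receptor chain Il17re at 12.6 and 15.1 against 6.54 and 7.45. The 2 lower members were the cytokines Il18, at 30.5 and 26.6 against 56.8 and 50.2, and Csf2, at 17.4 and 10.96 against 41.2 and 37.3 (-1.44 ± 0.23 (SE, limma adjusted p = 0.0376)). Adjusted p passed 0.05 without either Ly6d-low replicate for Nfkbie, Vcam1, Birc3, Il1b, Gbp4, Gbp6, Oasl2, Ifi44, Socs2, Lifr, Il17re, Il18 and Csf2 (adjusted p from 0.0573 to 0.251), without Ly6d-high replicate 2 or either Ly6d-low replicate for Cxcl12 (adjusted p from 0.0756 to 0.151) and without Ly6d-low replicate 1 for Cish (adjusted p = 0.071). Members of the NF-kB targets and feedback list called higher numbered 14 without Ly6d-high replicate 1 and 1 without either Ly6d-low replicate. The interferon-stimulated list had higher members numbering 15 without Ly6d-high replicate 1 and 1 without either Ly6d-low replicate. The count was 11 on TPM as deposited and 8 by edgeR on recovered reads. Counted again, higher members of the cytokine receptors and STAT3 axis list were 11 without Ly6d-high replicate 1, 0 without Ly6d-low replicate 1 and 1 without Ly6d-low replicate 2.

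Signalling lists held a few called genes each, beside 4.87% higher and 1.70% lower over all tested genes. Of Wnt targets 3 of 23 were higher and 0 lower, with the receptor Tnfrsf19 at 9.46 and 10.2 against 1.53 and 1.403 (2.14). In the TGF-beta and BMP list 4 of 30 were higher and 1 lower: the activin subunit Inhbb was at 6.59 and 6.21 against 0.566 and 0.399, Tgfb2 at 8.71 and 8.03 against 4.45 and 4.15, Bmp7 at 2.09 and 2.94 against 0.415 and 0.387, the decoy receptor Bambi at 8.196 and 8.02 against 4.49 and 4.8, and the inhibitory Smad7, the lower member, at 7.82 and 7.09 against 13.9 and 12.5. Of the Hippo list 2 of 24 (8.33%) were higher, the scaffolds Amotl2 and Wwc1. Of stem and progenitor genes 3 of 27 were higher and 1 lower. The higher members included Prox1 and the tuft cell kinase Dclk1, at 11.5 and 11.1 against 6.204 and 6.13, and the lower member was Aldh1a3, an enzyme that makes retinoic acid, at 159.7 and 162 against 236 and 239. Trp53inp1, the 1 of 25 p53 targets called, was at 10.2 and 10.8 against 2.66 and 3.06. That share of 4.0% was under the 4.87% higher over all tested genes. In the Wnt targets list the count of higher members was 6 without Ly6d-high replicate 1, 1 without Ly6d-high replicate 2 and 1 without either Ly6d-low replicate. The count was 5 on TPM as deposited and 5 by edgeR on recovered reads. Members of the TGF-beta and BMP list called higher numbered 11 without Ly6d-high replicate 1, 2 without Ly6d-high replicate 2 and 1 without either Ly6d-low replicate. The stem and progenitor list had higher members numbering 6 without Ly6d-high replicate 1, 1 without either Ly6d-low replicate and 5 on TPM as deposited. The threshold was missed without either Ly6d-low replicate for Tgfb2, Bmp7, Bambi, Smad7, Amotl2, Wwc1, Dclk1 and Aldh1a3 (adjusted p from 0.0934 to 0.333) and on TPM as deposited for Smad7 and Aldh1a3 (adjusted p from 0.101 to 0.181).

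Enzymes of retinoid and eicosanoid metabolism were higher in 4 of 26 tested members and lower in 1, Aldh1a3 (median 0.04). The higher members act on eicosanoids, the lipid mediators made from arachidonic acid. Hpgd, which inactivates prostaglandins, was at 17.95 and 11.6 against 3.74 and 4.88. The cyclooxygenase Ptgs1 was at 12.6 and 12.2 against 4.77 and 5.099, the prostaglandin D synthase Ptgds at 9.53 and 7.48 against 2.47 and 3.003 and the lipoxygenase Alox12 at 2.65 and 2.12 against 0.227 and 0.381. Of 26 cell death and survival genes 3 were higher and 2 lower. The death receptor ligand Tnfsf10 was at 5.6 and 5.46 against 1.72 and 1.83, Bik, a pro-apoptotic BH3 protein, at 17.2 and 10.7 against 2.33 and 1.42 and the caspase Casp12 at 64.3 and 63.3 against 35.3 and 35.8. The lower members included the Bcl2 relative Bcl2l14, at 6.43 and 5.47 against 10.6 and 10.6. The EGF receptor list had 1 lower of 19, Phlda1 at 50.3 and 44.2 against 72.9 and 76.6, the histone list 2 higher of 33, Hist1h1e at 12.4 and 12.9 against 6.53 and 7.26 and Hist1h3e at 8.02 and 9.12 against 5.099 and 4.4, and the lysosome list 1 higher of 31, Ctss. These shares were 5.26% lower, 6.06% higher and 3.23% higher. Over all tested genes 4.87% were higher and 1.70% lower, so the lysosome share was under that background. Counted again, higher members of the retinoid and eicosanoid enzymes list were 0 without Ly6d-low replicate 1, 2 without Ly6d-low replicate 2 and 7 by edgeR on recovered reads. In the cell death and survival list the count of higher members was 5 without Ly6d-high replicate 1 and 1 without either Ly6d-low replicate. The call was lost without either Ly6d-low replicate for Hpgd, Alox12, Tnfsf10, Casp12, Bcl2l14, Phlda1 and Hist1h1e (adjusted p from 0.0517 to 0.255), without Ly6d-low replicate 1 for Ptgs1 and Ptgds (adjusted p from 0.0571 to 0.0739), without Ly6d-high replicate 2 or either Ly6d-low replicate for Hist1h3e (adjusted p from 0.0578 to 0.254), on TPM as deposited for Bcl2l14 and Phlda1 (adjusted p from 0.104 to 0.114), by edgeR on recovered reads for Hist1h3e (adjusted p = 0.124) and by DESeq2 on recovered reads for Hist1h1e and Hist1h3e (adjusted p from 0.081 to 0.473).

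**Figure D3:**
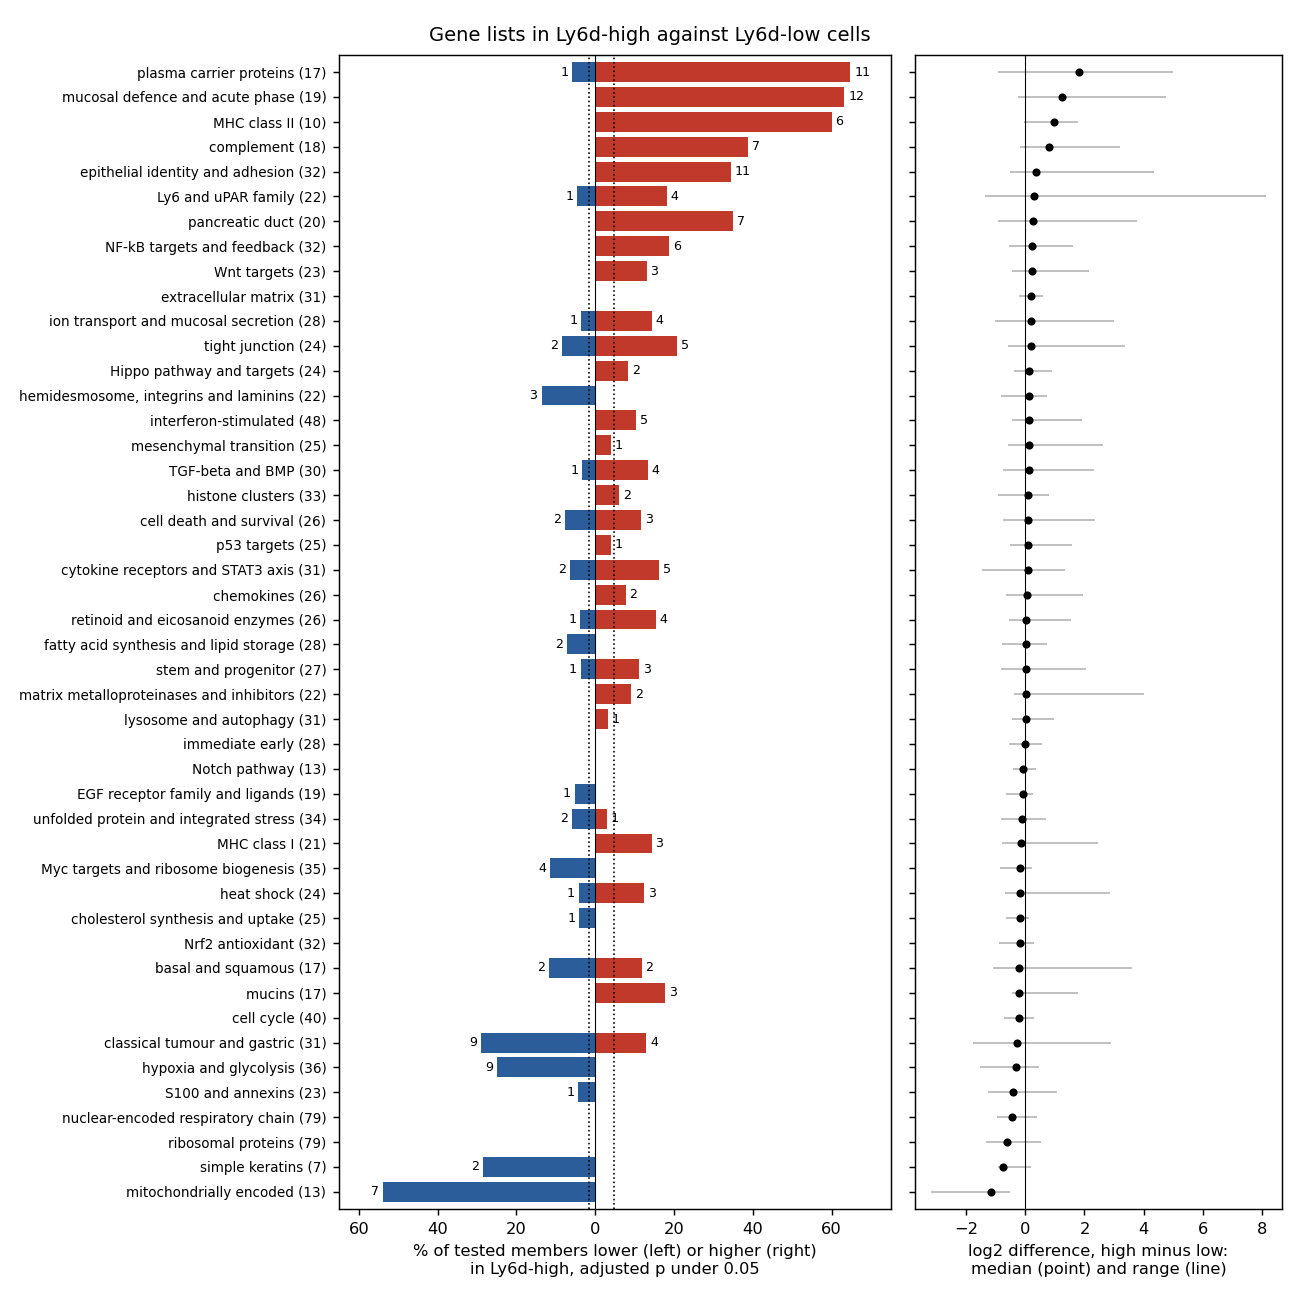
On the left, bars give the percentage of a list's tested members called higher (right, red) or lower (left, blue) in Ly6d-high, with counts at the bars and the number tested in brackets; dotted lines mark the shares among all tested genes, 4.87% higher and 1.70% lower. On the right, points and lines give the median and the range of the members' log2 differences. Plasma carrier proteins, mucosal defence, MHC class II and complement stand at the top, and simple keratins and mitochondrially encoded genes at the bottom.

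The lower genes included many of the classical, gastric-like state of pancreatic tumours. In that list 9 of 31 tested members were lower and 4 higher (median -0.29). Agr2 (ENSMUSG00000020581, chr12:35992907-36004087), a protein disulphide isomerase needed for mucin folding, was at 137 and 82.8 scaled TPM in Ly6d-high and 390.5 and 334 in Ly6d-low, or 3.295-fold lower in Ly6d-high cells (-1.75 ± 0.26 (SE, limma adjusted p = 0.0344)). Lgals4, a galectin of gut epithelium, was at 1024 and 836 scaled TPM in Ly6d-high and 2367 and 2219 in Ly6d-low (-1.31 ± 0.14 (SE, limma adjusted p = 0.0154)). The gastrokine Gkn2 was at 55.05 and 44.2 scaled TPM in Ly6d-high and 139 and 131 in Ly6d-low (-1.44 ± 0.13 (SE, limma adjusted p = 0.0105)). In all 3 genes both Ly6d-high libraries lay under both Ly6d-low libraries. Vsig1, a junction protein of stomach epithelium, was at 43.8 and 43.5 against 73.8 and 76.2. Gkn1, Ctse, Spdef, Sult1c2 and Cdh17, named after their values were seen, were the other lower members. The higher members were Onecut1, Vsig2 at 6.83 and 5.14 against 0.281 and 0.214 and, named after their values were seen, Gata6 at 22.1 and 25.6 against 11.8 and 12.7 and the trefoil factor Tff2 at 142 and 96.4 against 35.5 and 42.4. Members of the classical tumour and gastric list called lower numbered 15 without Ly6d-high replicate 1, 1 without Ly6d-low replicate 1 and 2 without Ly6d-low replicate 2. Calls no longer held without either Ly6d-low replicate for Agr2, Lgals4, Vsig1, Gkn1, Ctse, Sult1c2, Cdh17 and Gata6 (adjusted p from 0.0591 to 0.384), without Ly6d-low replicate 1 for Spdef and Tff2 (adjusted p from 0.0774 to 0.112) and on TPM as deposited for Vsig1, Ctse and Cdh17 (adjusted p from 0.0537 to 0.199).

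Some structural genes of the epithelium were lower. Of the simple keratins, the intermediate filaments of glandular epithelia, 2 of 7 were lower and 0 higher (median -0.76). Krt7, of duct-type epithelia, was at 1284 and 1094 scaled TPM in Ly6d-high and 2306 and 2160.3 in Ly6d-low (-0.91 ± 0.13 (SE, limma adjusted p = 0.0308)), and Krt20, of gut and stomach surface cells, at 1535 and 1400.0 scaled TPM in Ly6d-high and 2463 and 2298 in Ly6d-low (-0.70 ± 0.12 (SE, limma adjusted p = 0.0427)). Of the laminin chains of the basement membrane, on which epithelia are anchored, Lama3 was at 3.95 and 3.99 scaled TPM in Ly6d-high and 8.05 and 7.48 in Ly6d-low (-0.82) and Lamb3 at 19.3 and 22.4 against 34.95 and 34.8 (-0.72). They were among the 3 lower of 22 tested members of the list of hemidesmosome, integrin and laminin genes, whose median was 0.13. Anxa1, a calcium-dependent membrane-binding protein that limits inflammation, was at 1697 and 1419.8 scaled TPM in Ly6d-high and 3297 and 2945 in Ly6d-low and was the 1 lower of 23 tested S100 and annexin genes (median -0.41). The simple keratins list had lower members numbering 5 without either Ly6d-high replicate and 0 without either Ly6d-low replicate. The count was 5 on TPM as deposited, 5 by edgeR on recovered reads and 5 by DESeq2 on recovered reads. Counted again, lower members of the hemidesmosome, integrins and laminins list were 5 without either Ly6d-high replicate and 0 without either Ly6d-low replicate. The count was 0 on TPM as deposited, 5 by edgeR on recovered reads and 6 by DESeq2 on recovered reads. In the S100 and annexins list the count of lower members was 15 without Ly6d-high replicate 1, 6 without Ly6d-high replicate 2 and 0 without either Ly6d-low replicate. The count was 3 on TPM as deposited, 7 by edgeR on recovered reads and 6 by DESeq2 on recovered reads. Adjusted p passed 0.05 without either Ly6d-low replicate for Krt7, Krt20, Lama3, Lamb3 and Anxa1 (adjusted p from 0.138 to 0.428) and on TPM as deposited for Lama3 and Lamb3 (adjusted p from 0.0875 to 0.143).

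In the list of hypoxia and glycolysis genes, 9 of 36 tested members were lower and 0 higher (median -0.30). Ldha, which reduces pyruvate to lactate, was at 2531 and 2168 scaled TPM in Ly6d-high and 4289 and 4123 in Ly6d-low (-0.84 ± 0.13 (SE, limma adjusted p = 0.0393)). The glycolytic enzymes Pgam1 and Pkm were at 1416 and 1412 against 2252 and 2212 and 1338 and 1346 against 2109.9 and 2108. Adrenomedullin (Adm) was at 88.96 and 95.3 against 150.0 and 150.3. The vascular growth factor Vegfa was at 88.4 and 83.04 against 134 and 129 and the mitophagy receptor Bnip3 at 208 and 191 against 320.2 and 306. These 3 genes are known targets of hypoxia-inducible factors. Their differences were -0.70, -0.61 and -0.65, small beside the rises above but with no overlap between fractions. The remaining lower members were Ddit4 and, named after their values were seen, Ero1l and Slc16a3. Members of the hypoxia and glycolysis list called lower numbered 16 without Ly6d-high replicate 1, 1 without Ly6d-low replicate 1 and 0 without Ly6d-low replicate 2. The count was 2 on TPM as deposited, 14 by edgeR on recovered reads and 14 by DESeq2 on recovered reads. The threshold was missed without either Ly6d-low replicate for Ldha, Pgam1, Pkm, Adm, Vegfa, Bnip3, Ddit4, Ero1l and Slc16a3 (adjusted p from 0.115 to 0.454) and on TPM as deposited for Pgam1, Pkm, Adm, Vegfa, Bnip3, Ddit4, Ero1l and Slc16a3 (adjusted p from 0.0568 to 0.32).

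Ribosome biogenesis genes gave 4 lower and 0 higher of 35 tested (median -0.17), with the nucleolar proteins Nop58, Nop56 and Ncl at 26.1 and 23.6 against 41.9 and 40.3, 112 and 105 against 168 and 154 and 133 and 121 against 195 and 184, beside Ldha. Of the unfolded protein and stress list, 1 of 34 was higher and 2 lower (2.94% and 5.88%, against 4.87% and 1.70% over all tested genes). Xbp1, a transcription factor of secretory cells, was at 410.2 and 404 against 251 and 242, and Hspa5, the main chaperone of the endoplasmic reticulum, at 1089 and 1050.0 against 1749.9 and 1635, with Ddit4 the other lower member. In lipid metabolism Cyp51 of cholesterol synthesis was at 166 and 171 against 251 and 255 and Acsl3 of fatty acid activation at 25.9 and 27.3 against 39.7 and 37.8. The cholesterol list had 1 lower of 25 tested members and the fatty acid list 2 of 28, with 0 higher in either. The Myc targets and ribosome biogenesis list had lower members numbering 14 without Ly6d-high replicate 1 and 0 without either Ly6d-low replicate. The count was 2 on TPM as deposited, 7 by edgeR on recovered reads and 8 by DESeq2 on recovered reads. Counted again, lower members of the unfolded protein and integrated stress list were 11 without Ly6d-high replicate 1, 4 without Ly6d-high replicate 2 and 0 without either Ly6d-low replicate. The count was 0 on TPM as deposited, 5 by edgeR on recovered reads and 5 by DESeq2 on recovered reads. The call was lost without either Ly6d-low replicate for Nop58, Nop56, Ncl, Xbp1, Hspa5, Cyp51 and Acsl3 (adjusted p from 0.169 to 0.425) and on TPM as deposited for Nop58, Nop56, Ncl, Hspa5, Cyp51 and Acsl3 (adjusted p from 0.0509 to 0.3).

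Transcripts of the mitochondrial genome were lower as a group, with 7 of 13 tested protein-coding members lower and 0 higher (median -1.17, range -3.16 to -0.51). The oxidase subunit mt-Co3 was at 94.2 and 65.7 scaled TPM in Ly6d-high and 563 and 379 in Ly6d-low (-2.54 ± 0.27 (SE, limma adjusted p = 0.0144)). The abundant members mt-Co1 and mt-Cytb, of complexes IV and III, were at 3487 and 2988 against 7243 and 7278 and 4253 and 3394 against 8627 and 7720.1, and the complex I subunit mt-Nd3 at 7.003 and 5.11 against 22.9 and 22.4. The low libraries were the higher ones in each. Genes of the mitochondrial chromosome took 2.02% and 1.87% of TPM in Ly6d-high and 3.30% and 3.38% in Ly6d-low libraries. Members of the respiratory chain encoded in the nucleus gave 0 calls in 79 tested genes by limma (median -0.43). These genes had 2 higher and 15 lower at an unadjusted p under 0.05, 0 higher and 5 lower by edgeR, 0 higher and 13 lower by DESeq2, 2 higher and 68 lower without Ly6d-high replicate 1, and 0 higher and 4 lower without Ly6d-high replicate 2. Lars2, the mitochondrial leucine tRNA ligase, was at 28.5 and 24.98 scaled TPM in Ly6d-high and 92.2 and 96.5 in Ly6d-low (-1.78 ± 0.10 (SE, limma adjusted p = 0.00345)). Several mitochondrial genes have near-identical copies in the nuclear genome, so their reads may have been split, and the mitochondrial tRNAs among the largest falls rested on at most 17 reads in a Ly6d-low library. In the mitochondrially encoded list the count of lower members was 13 without Ly6d-high replicate 1, 12 without Ly6d-high replicate 2, 3 without Ly6d-low replicate 1 and 2 without Ly6d-low replicate 2. The count was 11 by edgeR on recovered reads and 12 by DESeq2 on recovered reads. Calls no longer held without either Ly6d-low replicate for mt-Co1 and mt-Cytb (adjusted p from 0.195 to 0.295).

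Among the largest falls outside the lists, Ripply3, a corepressor of the pharyngeal region of the embryo, was at 45.7 and 36.3 scaled TPM in Ly6d-high and 120.5 and 116 in Ly6d-low (-1.51 ± 0.13 (SE, limma adjusted p = 0.00965)). Cfhr2, a gene related to complement factor H, was at 16.6 and 12.9 against 52.2 and 44.2. The tetraspanin Tspan32 was at 4.22 and 3.24 against 13.3 and 11.8, and AU021092, a gene without a known role named here, at 29.8 and 28.7 against 85.2 and 78.9. The 4 genes kept their calls without any 1 of the 4 libraries (highest adjusted p = 0.0486, for Tspan32).

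In other lists no member was called. The cell cycle list had 0 of 40 called by limma (median -0.22, range -0.70 to 0.31), the immediate early list 0 of 28 (median -0.02), the Notch pathway 0 of 13 (median -0.06), extracellular matrix 0 of 31 (median 0.20) and Nrf2 antioxidant genes 0 of 32 (median -0.17). Ribosomal protein genes gave 0 of 79, with a median of -0.61, and have many near-identical pseudogenes. The cell cycle list had 0 higher and 14 lower at an unadjusted p under 0.05, 0 higher and 2 lower by edgeR, 0 higher and 2 lower by DESeq2, 2 higher and 9 lower without Ly6d-high replicate 1, and 0 higher and 4 lower without Ly6d-high replicate 2. Immediate early genes had 6 higher and 5 lower at an unadjusted p under 0.05, 2 higher and 1 lower by edgeR, 0 higher and 0 lower by DESeq2, 7 higher and 2 lower without Ly6d-high replicate 1, and 1 higher and 1 lower without Ly6d-high replicate 2. The Notch list had 0 higher and 1 lower at an unadjusted p under 0.05, 1 higher and 0 lower by edgeR, 1 higher and 0 lower by DESeq2, 2 higher and 1 lower without Ly6d-high replicate 1, and 0 higher and 0 lower without Ly6d-high replicate 2. The matrix list had 8 higher and 0 lower at an unadjusted p under 0.05, 1 higher and 0 lower by edgeR, 2 higher and 0 lower by DESeq2, 13 higher and 1 lower without Ly6d-high replicate 1, and 1 higher and 0 lower without Ly6d-high replicate 2. The Nrf2 list had 0 higher and 7 lower at an unadjusted p under 0.05, 0 higher and 4 lower by edgeR, 0 higher and 5 lower by DESeq2, 2 higher and 11 lower without Ly6d-high replicate 1, and 2 higher and 4 lower without Ly6d-high replicate 2. Ribosomal proteins had 0 higher and 23 lower at an unadjusted p under 0.05, 0 higher and 5 lower by edgeR, 0 higher and 21 lower by DESeq2, 0 higher and 75 lower without Ly6d-high replicate 1, and 1 higher and 9 lower without Ly6d-high replicate 2. Without either Ly6d-low library each of these lists had 0 calls. A difference that misses the threshold with 2 libraries a fraction does not show equal levels.

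Markers of other cell types moved with the fractions, and their part in the results above was not tested. In bulk RNA more cells of a type and more RNA per cell cannot be told apart. Antibody transcripts were nearly confined to the Ly6d-high libraries. Of 264 immunoglobulin segments, 85 were tested and 72 of these were higher and 0 lower, and the segments summed to 3162 and 2377 scaled TPM in Ly6d-high and 2.82 and 3.35 in Ly6d-low. With so little in Ly6d-low, most segments could pass the filter only through the Ly6d-high libraries. The filter thus went far to fix this share, which is no test of direction. The kappa constant gene Igkc was at 1718 and 1309.7 scaled TPM in Ly6d-high and 1.74 and 1.33 in Ly6d-low, with 5 reads in either low library. The heavy chain gene Igha, of secreted mucosal antibody, was at 160.3 and 134 against 0 and 0.05303, and Ighg2c was at 256 and 245 with 0 reads in Ly6d-low, at least 1380.5-fold higher against 3 reads over that group. Jchain and Mzb1, which serve antibody secretion in plasma cells, were at 64.3 and 47.1 against 0.147 and 0.112 and 20.7 and 15.7 against 0 and 0. Of the B and plasma cell list 9 of 14 tested members were higher and 0 lower (median 4.03), immunoglobulin genes included. Igha, Ighg2c, Jchain and Mzb1 likewise passed the filter only through Ly6d-high, so this count is no test of direction either. In the fit without mitochondrial genes and immunoglobulin segments the median of the list was 0.34. The B cell surface and lineage genes Ms4a1, Pax5 and Tnfrsf17, named after their values were seen, were at 0 and 0 against 0.0599 and 0, 0 and 0 against 0 and 0 and 0 and 0 against 0 and 0. These were at or near 0 in every library, while Igkc, Igha and Ighg2c stood above 100 in Ly6d-high. Without either Ly6d-high library most of these genes fell under the filter on low levels, and 1 of the 9 and 1 of the 72 were called. By edgeR and by DESeq2 on recovered reads 45 segments were higher.

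Macrophage genes were higher in 8 of 15 tested members and lower in 0 (median 1.40), and the list of 24 summed to 1085 and 966 scaled TPM in Ly6d-high and 376 and 364 in Ly6d-low. Lysozyme Lyz2 was at 88.7 and 71.8 scaled TPM in Ly6d-high and 11.3 and 12.8 in Ly6d-low, the lipopolysaccharide coreceptor Cd14 at 624 and 589 scaled TPM in Ly6d-high and 229 and 228 in Ly6d-low, and the complement C1q chains C1qa and C1qc at 16.6 and 11.7 against 1.78 and 1.77 and 12.2 and 10.3 against 1.06 and 1.76. The macrophage-defining genes Adgre1, Csf1r and Itgam, named after their values were seen, stayed at or under 1.51 scaled TPM in every library. Pan-leukocyte genes were higher in 2 of 11, Cd48 at 2.15 and 2.46 against 0.312 and 0.119 and Rac2 at 2.87 and 2.38 against 0.597 and 0.638, and the list summed to 54.6 and 47.8 scaled TPM in Ly6d-high and 32.02 and 30.7 in Ly6d-low. Cd48 and Rac2 passed the filter only through Ly6d-high, so the count of these genes is no test of direction. Ptprc, the CD45 gene carried by nearly all leukocytes and named with its values known, was at 0.0798 and 0.146 against 0.0708 and 0.0464. The neutrophil list had 2 of 6 tested members higher and 0 lower, Lcn2 and Ltf, both also in the mucosal defence list. The log2 differences of the 6 had a median of 0.84 and a lowest value of 0.33. Of its 22 members 16 were not tested, and 4 had 0 reads in all libraries, among them the granule genes Camp, Ctsg and Stfa1. Of the T cell list 1 of 4 was higher, Trbc2 at 3.35 and 3.49 against 0.803 and 1.02, of the dendritic cell list 1 of 5, H2-DMb2, and of the natural killer list 0 of 2. Of fibroblast and mural genes 1 of 19 was higher, the pericyte gene Rgs5 at 67.1 and 66.4 scaled TPM in Ly6d-high and 3.75 and 3.52 in Ly6d-low (3.87 ± 0.09 (SE, limma adjusted p = 0.00062)), where Pdgfrb, a receptor of the same cells, was at 14.97 and 18.9 against 12.8 and 13.3 and the list summed to 723 and 726 scaled TPM in Ly6d-high and 672 and 665 in Ly6d-low. The fibroblast and mural share called higher, 5.26%, was near the 4.87% over all tested genes. The endothelial list summed to 154 and 168 scaled TPM in Ly6d-high and 138 and 144 in Ly6d-low. Adjusted p passed 0.05 without either Ly6d-low replicate for Cd48, Rac2 and Trbc2 (adjusted p from 0.0601 to 0.131), by edgeR on recovered reads for Trbc2 (adjusted p = 0.0721) and by DESeq2 on recovered reads for Cd48 and Trbc2 (adjusted p from 0.0725 to 0.368). Members of the pan-leukocyte list called higher numbered 1 without either Ly6d-high replicate and 0 without either Ly6d-low replicate. The count was 4 on TPM as deposited and 6 by edgeR on recovered reads.

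Acinar genes, the digestive enzymes of the exocrine pancreas around the tumour, were higher in 12 of 33 tested members and lower in 0 (median 0.80), and the list of 35 summed to 26489 and 20018 scaled TPM in Ly6d-high and 11668 and 11362 in Ly6d-low. The lipase-related gene Pnliprp1 was at 1992 and 1894 scaled TPM in Ly6d-high and 522 and 539 in Ly6d-low (1.87 ± 0.10 (SE, limma adjusted p = 0.00279)), the carboxypeptidase Cpa1 at 686 and 694 against 283 and 271, the bile salt lipase Cel at 670.4 and 761 against 261 and 287, the zymogen granule membrane gene Gp2 at 149 and 143 against 62.1 and 65.6, and Cckar, the cholecystokinin receptor, at 9.56 and 10.5 against 1.51 and 1.73. The islet hormone genes went the other way: of the islet list 4 of 17 were lower and 2 higher (median -0.65). Glucagon (Gcg) was at 212 and 184 scaled TPM in Ly6d-high and 507 and 456 in Ly6d-low (-1.28 ± 0.12 (SE, limma adjusted p = 0.0105)), amylin (Iapp) at 37.4 and 29.2 against 90.6 and 85.3 and insulin (Ins2) at 52.2 and 31.6 against 113 and 111, and the somatostatin gene Sst, named after its values were seen, at 26.4 and 18.7 against 48.8 and 44.3. The 2 higher members were Ttr and the transcription factor Nkx6-1, at 2.83 and 1.99 against 0.177 and 0.0451. Acinar RNA was thus higher and islet hormone RNA lower in the same 2 libraries. The acinar list had higher members numbering 19 without Ly6d-high replicate 1, 22 without Ly6d-high replicate 2, 3 without Ly6d-low replicate 1 and 6 without Ly6d-low replicate 2. The count was 24 on TPM as deposited and 19 by edgeR on recovered reads. Counted again, lower members of the islet list were 8 without Ly6d-high replicate 1, 0 without Ly6d-low replicate 1 and 2 without Ly6d-low replicate 2. The threshold was missed without either Ly6d-low replicate for Cpa1, Ins2, Sst and Nkx6-1 (adjusted p from 0.0539 to 0.175) and without Ly6d-low replicate 1 for Cel, Gp2, Gcg and Iapp (adjusted p from 0.054 to 0.071).

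Genes of the Y chromosome, looked at after their values were seen, also separated the fractions. Eif2s3y (ENSMUSG00000069049, chrY:1010543-1028847), which encodes a translation initiation factor subunit, was at 11.2 and 10.2 scaled TPM in Ly6d-high and 0.579 and 0.51 in Ly6d-low (2.92 ± 0.13 (SE, limma adjusted p = 0.00208)), and Ddx3y, an RNA helicase, at 4.55 and 3.62 scaled TPM in Ly6d-high and 0.5704 and 0.408 in Ly6d-low (1.77 ± 0.18 (SE, limma adjusted p = 0.0134)). Uty and Kdm5d, which encode histone demethylase-related proteins, were under the filter on low levels, with 67 and 65 reads in Ly6d-high and 0 and 1 in Ly6d-low for Uty, and 53 and 50 against 2 and 2 for Kdm5d. All 4 genes were thus higher in both Ly6d-high libraries and at or near 0 in both Ly6d-low libraries. Without either Ly6d-high replicate Eif2s3y and Ddx3y were under that filter as well. Xist, the RNA that silences an X chromosome in female cells, had 0 reads in all 4 libraries. The X-linked partners Eif2s3x (8.37 and 8.14 against 8.51 and 9.32) and Ddx3x (61.6 and 54.8 against 70.4 and 67.7) were not called (adjusted p = 0.587 and 0.202). KPC1199 is a single line by its label, and how Y-linked RNA came to differ between fractions sorted from its tumours was not tested.

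**Figure D4:**
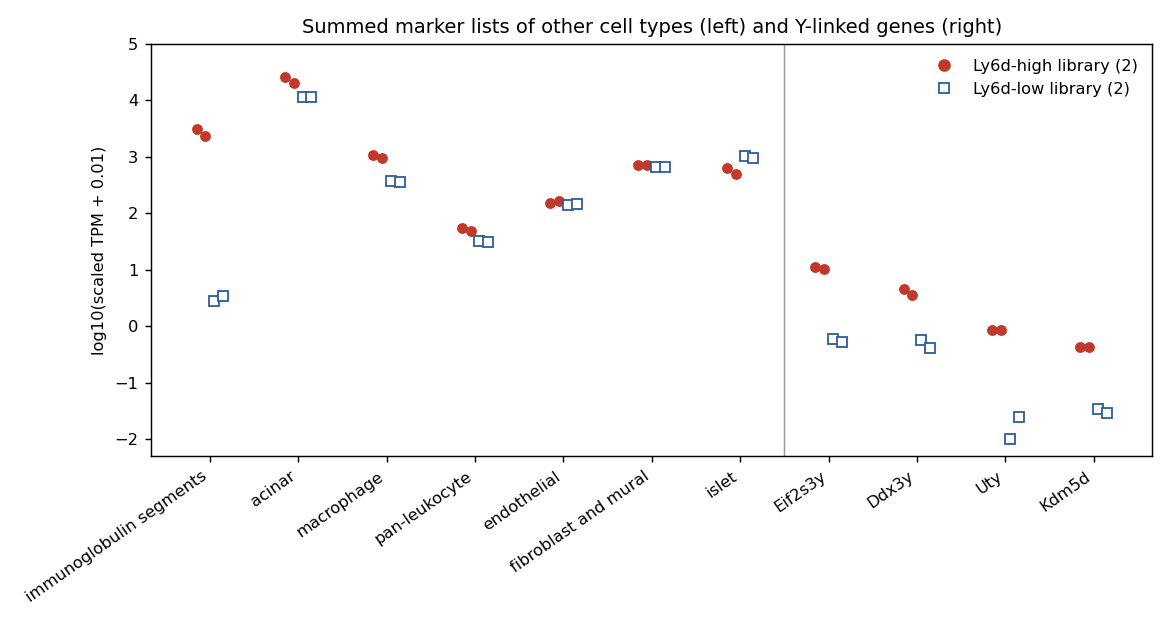
Symbols give each library's value as log10(scaled TPM + 0.01), summed over all members of a marker list (left of the line) or for a Y-linked gene (right of it); filled circles are Ly6d-high and open squares Ly6d-low libraries. Immunoglobulin segments and the 4 Y-linked genes differ most, acinar, macrophage and leukocyte sums are higher in Ly6d-high, the islet sum is lower, and endothelial and fibroblast sums lie close together.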

How the data were processed

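The series measured RNA of mouse pancreatic tumours and of KPC1199 cells sorted from them; 4 sorted libraries, 2 Ly6d-high and 2 Ly6d-low, were used. The submitters' processing notes name fastp, HISAT2, featureCounts, DESeq2 and the build mm9, without versions. Gene coordinates in the files are those of GRCm38 for 98.3% of genes, so that build is named. Strand use in counting was not stated. The deposited values are TPM, computed by the authors over listed gene lengths. The deposited count table gave gene names and the counts of the sorted WT cells, from which CPM were computed; 4 further columns of per-sample counts were not used.

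TPM times length gave whole reads for 100% of values above 0 (tolerance 0.1 reads). Read totals were 20509539 and 18362419 (Ly6d-high) and 15063975 and 19322028 (Ly6d-low). TPM were divided by TMM factors (edgeR 4.0.16) and tested with limma 3.58.1 (limma-trend, two-sided) in R 4.3.3 on log2(value + 1), at 1 TPM or more in at least 2 libraries. The step was tested on simulated data. Alternatives were other scalings, pseudocount and filters, a replicate block, leaving out each library, and edgeR and DESeq2 1.42.0 on recovered reads.

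The members and gene lists were chosen with earlier results of these data known. Named were Ly6d, Lcn2 and Mmp7, the 15 largest rises and 15 largest falls past the threshold (mean of at least 5 scaled TPM in the higher group, no overlap between fractions, no predicted genes, pseudogenes or receptor segments), and up to 5 members with the lowest p past the threshold in each list. Some of the genes so chosen are not reported here.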

Additional observations from a re-analysis of the deposited data

How the results depend on the processing

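With 2 libraries a fraction, the number of calls depends on how the spread is estimated, and genes near 0 in Ly6d-low cells rest on few reads there. Against 712 higher and 249 lower genes, TPM as deposited gave 1264 higher, edgeR on recovered reads 1224 higher and 591 lower, DESeq2 607 lower, and testing without the filter on low levels 342 higher and 54 lower. Leaving out each library in turn gave 347 to 1744 higher and 27 to 2349 lower genes, with the lowest counts without a Ly6d-low library. The remaining settings, the replicate block aside, stayed within 1.5 times, among them 608 higher and 244 lower genes without the marker lists of other cell types, an alternative chosen after seeing the data. No gene was called in the opposite direction in any setting run. Of 181 named genes, 83 kept their call without each library in turn wherever they were still tested, and 76 in every fit that tested them; without a Ly6d-high library, 32 of them were not tested. The labels do not state whether same-numbered libraries of the 2 fractions came from the same tumour. Deviations of same-numbered libraries correlated at 0.066, which cannot decide whether they were paired. The replicate block gave 515 higher and 135 lower genes and ended the call of 42 named genes.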
